A study of Homo sapiens with 15 samples.

Results

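Methylation of the 45S ribosomal DNA unit was compared between 3 libraries taken 14 days and 3 libraries taken 7 days after human lymphoblastoid cells were given hexavalent chromium. All 6 libraries came from the established line NA12043, in which Epstein-Barr virus keeps B lymphocytes dividing, and all had received 5 µM hexavalent chromium for 24 hours. The series holds 15 libraries, and the others are 6 controls from before the exposure and 3 libraries from day 3, whose levels are given beside the results with no test. The members are the CpG sites read as C or T at least 10 times in each of the 6 late libraries, whether or not a control library listed them. These were 997 of the 1388 CpG sites listed in any of the 15 libraries, and 139 of them lacked 10 reads in at least 1 control. The question was which stretches had moved further, or back, between the late times. No label ties a replicate number to a separate culture, and the protocol speaks of fewer biological replicates than the labels number, so each p-value is set against the spread of these libraries only, and that spread may be technical. The cell type could not be checked, because the files hold 1 repeat and no marker gene.

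Ribosomal DNA is a tandem repeat on the short arms of the acrocentric chromosomes, and RNA polymerase I transcribes it in the nucleolus. Each transcript holds a 5′ external transcribed spacer (5′ ETS), the 18S, 5.8S and 28S ribosomal RNAs and, between them, the internal transcribed spacers ITS1 and ITS2. The spacers are cut away during processing. Many copies in a cell are silent, and CpG methylation, above all at the promoter, is a known mark of silent copies. Hexavalent chromium is a carcinogen that cells take up and reduce, with damage to DNA. A percentage here is an average over all copies of the repeat in the cells sampled, so a change in a few copies and a change spread over many cannot be told apart.

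Positions are counted along the GenBank record of the human ribosomal repeat, with 1 at the start of the transcript and negative numbers upstream. The tested sites ran from -982 to 12931 and fell into 9 regions, which are runs of sites at most 300 bp apart. Region 1 (-982 to -820, 23 sites) lies upstream. Region 2 (287 to 659, 22 sites) and region 3 (1561 to 3439, 264 sites) lie in the 5′ ETS. Region 4 (4135 to 4507, 31 sites) lies in 18S, and region 5 (4819 to 7405, 300 sites) runs from 18S through ITS1 and 5.8S into ITS2. Regions 6 (8023 to 8191, 24 sites), 7 (8568 to 8666, 16 sites), 8 (8993 to 10864, 221 sites) and 9 (11571 to 12931, 96 sites) lie in 28S. No tested site lies between -820 and 287, so the core promoter at the transcript start is not among the members.

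The libraries held 28716783 to 95852393 reads of C or T, and their median depth at tested sites was 679 to 3386 reads. Bisulfite leaves methylated cytosine as C and turns unmethylated cytosine into a base read as T, so C outside CpG measures incomplete conversion. The share of C at CHG and CHH cytosines (H is any base but G) was 8.36%, 7.47% and 6.26% at day 7 and 5.45%, 5.59% and 7.54% at day 14. The groups overlapped, at 7.36% ± 1.06 and 6.19% ± 1.17 (SD, n = 3 each; two-sided exact permutation p = 0.3, with 0.1 the smallest that 3 against 3 can give). In the controls this share was 1.04% ± 0.287 (n = 6) and at day 3 it was 1.10% ± 0.247 (n = 3). The late libraries were thus like each other and unlike the early ones, which bears on every control level given below. Site by site the late groups were less alike: edgeR's quasi-likelihood test called 99 of 1486 CHG and CHH sites (6.66%) at an adjusted p below 0.05, of which 10 were higher (0.673%) and 89 lower at day 14 (5.99%). All 3 day 14 libraries lay above all 3 day 7 libraries at 96 of those sites (6.46%) and below them at 301 (20.3%). The local unconverted share, taken over cytosines outside CpG within 100 bp, is therefore given beside many of the results. Fits with that share removed were run for all sites, regions, windows and parts, and their values are printed for some of them. Beyond these fits, the part of that share in a result was not tested.

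Over all 997 sites the average level was 42.2%, 41.3% and 40.9% at day 7 and 40.9%, 43.3% and 47.5% at day 14. The groups overlapped (41.5% ± 0.672 and 43.9% ± 3.36, exact permutation p = 0.4). The day 14 mean was higher at 575 sites and lower at 420, with a median difference of 1.13 percentage points. Moves over 10 points were upward at 177 sites and downward at 39. All 3 day 14 libraries lay above all 3 day 7 libraries at 176 sites (17.7%) and below them at 108 sites (10.8%). With the local unconverted share removed these numbers were 231 and 60. edgeR called 6 of 997 sites (0.602%), 5 higher (0.502%) and 1 lower (0.1%) at day 14. At an unadjusted p below 0.05 it had 219 sites, 154 higher and 65 lower. The 5 higher sites lie within 12423 to 12597 near the 3′ end of 28S, and the lower one is 3394, near the end of the tested 5′ ETS. These calls rested on few libraries: leaving out replicate 1 or 2 of day 7, or replicate 2 or 3 of day 14, left 0 calls, with 174 to 198 sites at an unadjusted p below 0.05. Without replicate 3 of day 7 there were 97 calls, and without replicate 1 of day 14 there were 39. When all 15 libraries shared the estimate of the spread, 158 of 851 sites (18.6%) were called, 118 higher and 40 lower. That fit had 205 sites at an unadjusted p below 0.05. Its spread takes in controls and day 3, with 1.04% and 1.10% unconverted, against 7.36% at day 7 and 6.19% at day 14. Limma and a quasi-binomial fit on the 6 libraries each called 0, with 222 and 252 sites at an unadjusted p below 0.05.

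**Figure D1:**
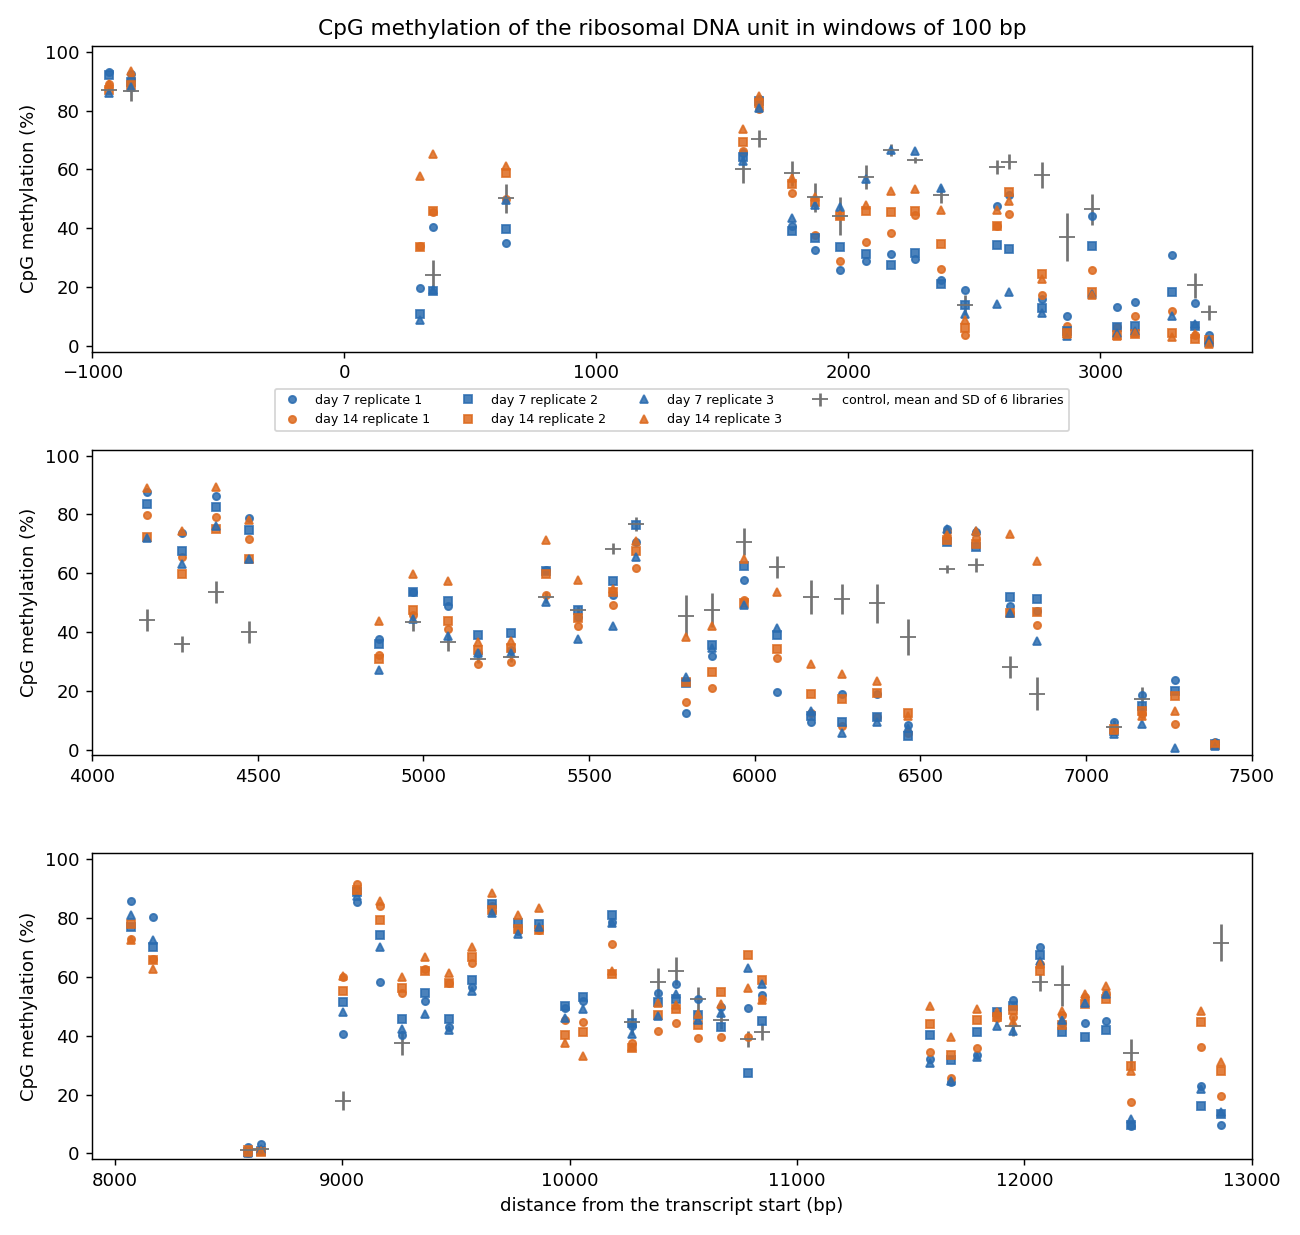
Mean CpG methylation (%) of 90 windows of 100 bp against distance from the transcript start (bp), 1 marker per library, with the control mean and SD (n = 6) where all sites of a window had control values. Day 14 (orange) lies above day 7 (blue) at 287 to 659 and from 12423 to 12907, and below it from 9944 to 10314.

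By region, limma on log2 ratios of methylated to unmethylated reads called 3 of 9 (33.3%): regions 2 and 9 rose and region 1 fell. In windows of 100 bp with at least 3 tested sites it called 5 of 90 (5.56%), of which 3 rose and 2 fell. Groups did not overlap in 25 windows (27.8%): day 14 lay above in 16 (17.8%) and below in 9 (10%). Neighbouring sites are often read on the same molecules, so the sites of a window or region are not separate measurements.

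The upstream sequence, which belongs to the intergenic spacer ahead of the promoter, was highly methylated. Region 1 held 93.0%, 91.4% and 86.5% methylation at day 7 and 89.6%, 87.5% and 90.6% at day 14, so the groups overlapped (90.3% ± 3.38 and 89.2% ± 1.57). Controls stood at 87.0% ± 1.89. On the log2 scale, where sites near full methylation weigh most, the region fell by 0.97 ± 0.18 (SE, limma adjusted p = 0.0223). Depth moved with this result: median reads per site were 349, 237 and 191 at day 7 and 114, 163 and 41 at day 14. With the reads of the region summed the log2 difference was -0.22 (adjusted p = 0.839), and the call also ended without replicate 3 of day 7 (adjusted p = 0.0873) or replicate 2 of day 14 (0.0685). The local unconverted share was 21.2%, 28.3% and 4.02% at day 7 (mean 17.8%) and 12.7%, 13.5% and 18.1% at day 14 (mean 14.8%). Removing it gave 88.3% and 87.2%, with a log2 difference of -0.89 (limma adjusted p = 0.0337).

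The 5′ ETS is the leader of the transcript, which ribosome assembly factors bind before it is cut away. Its start held the widest rise in percentage points of any region. Region 2 read 34.0%, 23.6% and 26.4% in the day 7 libraries and 44.2%, 47.3% and 62.3% at day 14. Every day 14 library lay above every day 7 library, and replicate 3 of day 14 was the highest. The means were 28.03% ± 5.37 and 51.3% ± 9.69 (exact permutation p = 0.1), and the region rose by 1.65 ± 0.42 on the log2 scale (limma adjusted p = 0.0300). Of its 22 sites, 13 had no overlap, all with day 14 above, while 17.7% of all 997 sites lay above. Over the 21 sites with control values, controls stood at 31.9% ± 4.80 (24.9% to 37.8%), day 7 at 29.3% and day 14 at 53.7%. Day 14 thus stood above both the day 7 and the control level there. The local unconverted share was 2.72% at day 7 and 4.47% at day 14, and removing it gave 26.4% and 49.4%. Median reads per site in the region ranged from 79 to 1383 across libraries. The call ended without replicate 3 of day 7 (adjusted p = 0.0981), replicate 2 of day 14 (0.0685) or replicate 3 of day 14 (0.0610), with log2 differences of 1.3 to 1.76.

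Within region 2, a window at 287 to 314 (5 sites, at least 134 reads) read 19.8%, 10.8% and 8.94% at day 7 and 34.0%, 33.8% and 57.9% at day 14. The next, 320 to 383 (10 sites), read 40.4%, 18.8% and 19.0%, then 45.4%, 45.9% and 65.3%. Neither window overlapped between the groups, but neither was called (limma adjusted p = 0.0970 for both); they, like every uncalled window below, were named after their values were seen. The widest rise of a single site in the whole set was at 341, which read 21.9%, 20.8% and 16.7% at day 7 and 51.8%, 50.4% and 75.6% at day 14, with at least 225 reads. Controls stood at 27.5% there, and the site, also picked after its values were seen, missed the threshold (edgeR adjusted p = 0.0507).

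**Figure D2:**
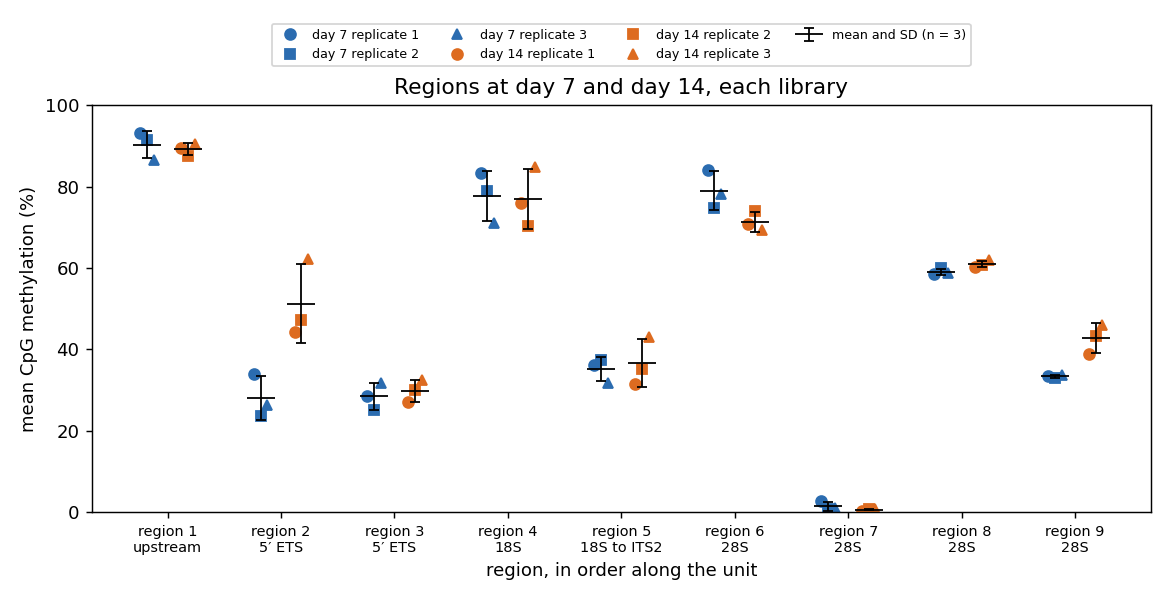
Mean CpG methylation (%) of the 9 regions in each library, with the mean and SD of 3 libraries per time. Regions 2 and 9 rise without overlap, to 51.3% and 42.8% on average, while regions 3, 4 and 5 overlap.

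The rest of the 5′ ETS gave no net change. Region 3 read 28.6%, 25.1% and 31.7% at day 7 and 27.0%, 30.0% and 32.5% at day 14 (log2 difference -0.13, limma adjusted p = 0.588). Its sites without overlap were split evenly, 39 with day 14 above and 38 with day 14 below of 264. Over all 997 sites, 17.7% lay above and 10.8% below. The flat average joins stretches that differed in opposite directions as counted. The unconverted share of the region was 10.2% at day 7 and 7.66% at day 14, and removing it gave 21.8% and 25.3%. Controls stood at 47.2% ± 3.01 over the sites with control values, against 29.7% at day 7 and 31.7% at day 14.

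One stretch of region 3 rose. The window at 1741 to 1815 (16 sites) read 40.9%, 39.1% and 43.5% at day 7 and 52.0%, 54.9% and 57.2% at day 14, and all 16 sites lay above without overlap. It rose by 0.98 ± 0.21 on the log2 scale (limma adjusted p = 0.0484), and controls stood at 58.8% ± 4.24. The unconverted share there was 12.7% at day 7 and 12.0% at day 14, and the call ended with that share removed (log2 difference 0.89, adjusted p = 0.0602). It also ended with reads summed (0.083), a pseudocount of 2 (0.0638) or a minimum of 100 reads (0.0514). Leaving out any of the 6 libraries ended this call too, with adjusted p of 0.0805 to 0.198 and log2 differences of 0.91 to 1.06. A window further on, 2726 to 2810, read 15.96%, 12.7% and 11.0%, then 17.2%, 24.6% and 22.7%, without overlap or call (adjusted p = 0.117), against 58.1% ± 4.54 in controls.

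At the far end of region 3 the levels were low and went lower. The window at 3331 to 3416 (20 sites) read 14.6%, 6.85% and 7.34% at day 7 and 3.70%, 2.32% and 4.09% at day 14, and 19 of its sites lay below without overlap. It fell by 2.26 ± 0.44 on the log2 scale (limma adjusted p = 0.0472), while controls stood at 20.6% ± 4.21. The unconverted share fell with it, from 5.86% to 0.958%, and with that share removed the difference was -2.16 points (adjusted p = 0.416). The called site in this window, 3394, read 5.56%, 3.45% and 3.97% at day 7 and 0.346%, 0.757% and 0.485% at day 14 (edgeR adjusted p = 0.0341), against 14.4% ± 4.72 in controls. Its difference with the share removed was -0.278 points (adjusted p = 0.465). This window's call ended without replicate 2 or 3 of day 7 or any replicate of day 14 (adjusted p = 0.0604 to 0.184), and the call of the site without replicate 1 or 2 of day 7 or replicate 2 or 3 of day 14 (0.057 to 0.143). The longest run of neighbouring sites with all day 14 values below all day 7 values was here, 21 sites from 3335 to 3428, at 6.32% on average at day 7 and 1.28% at day 14. A second window with day 14 below, 2427 to 2497, read 18.9%, 13.8% and 11.0%, then 3.75%, 5.97% and 8.88% (adjusted p = 0.0970), and controls stood at 14.02% ± 3.44. Its unconverted share was 8.11% at day 7 and 5.59% at day 14. The difference was -8.38 points as counted and -6.32 with that share removed.

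**Figure D3:**
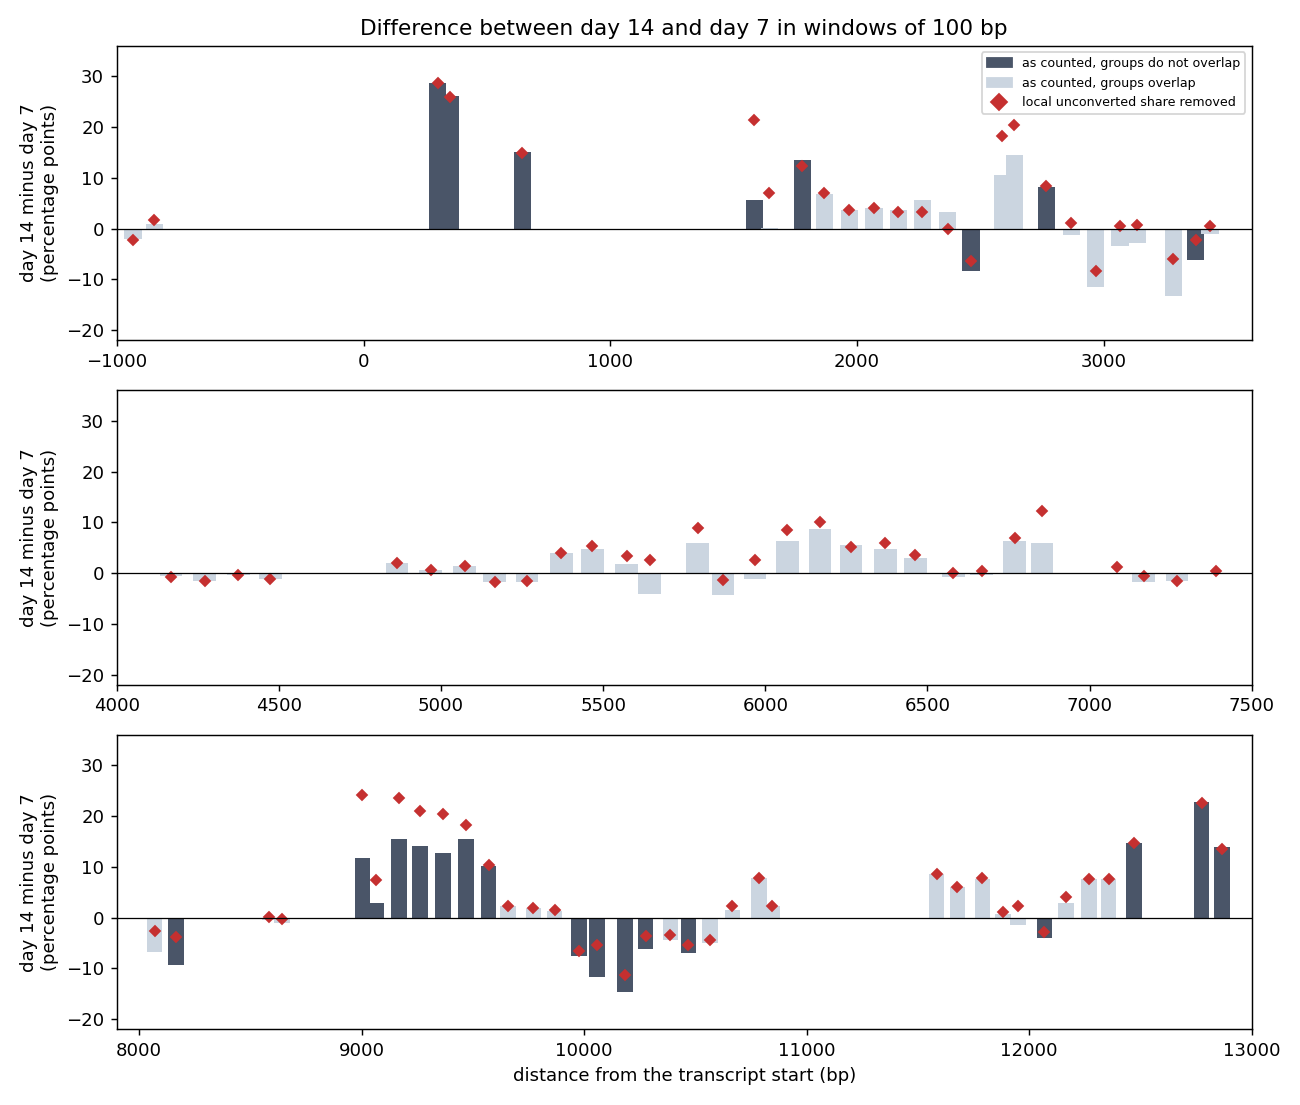
Difference in mean CpG methylation between day 14 and day 7 (percentage points) in windows of 100 bp against distance from the transcript start (bp). Dark bars have no overlap between groups, and red diamonds show the difference with the local unconverted share removed, which at 3331 to 3416 is -2.16 points.

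In the middle of the 5′ ETS, replicates of day 7 disagreed. Over a run of 33 sites from 1865 to 2057, each read at least 85625 times in every library, replicate 3 of day 7 was over 10 points above both of its partners at every site. The levels were 24.9%, 32.2% and 47.1% at day 7 and 28.7%, 44.1% and 44.4% at day 14, with controls at 44.4% ± 6.25. The window at 2119 to 2216 read 31.2%, 27.4% and 66.5% at day 7 and 38.5%, 45.4% and 52.6% at day 14, with controls at 66.6% ± 2.03. All 3 day 14 libraries there stood between the low pair and the high library of day 7. Across all sites, replicate 3 of day 7 lay over 20 points above both partners at 39 sites and below both at 25, which no other of the 6 libraries reached in either direction. Without it the 3 region calls became 0 (unadjusted p below 0.05 in 3 regions), and the number of called sites became 97, as given above.

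**Figure D4:**
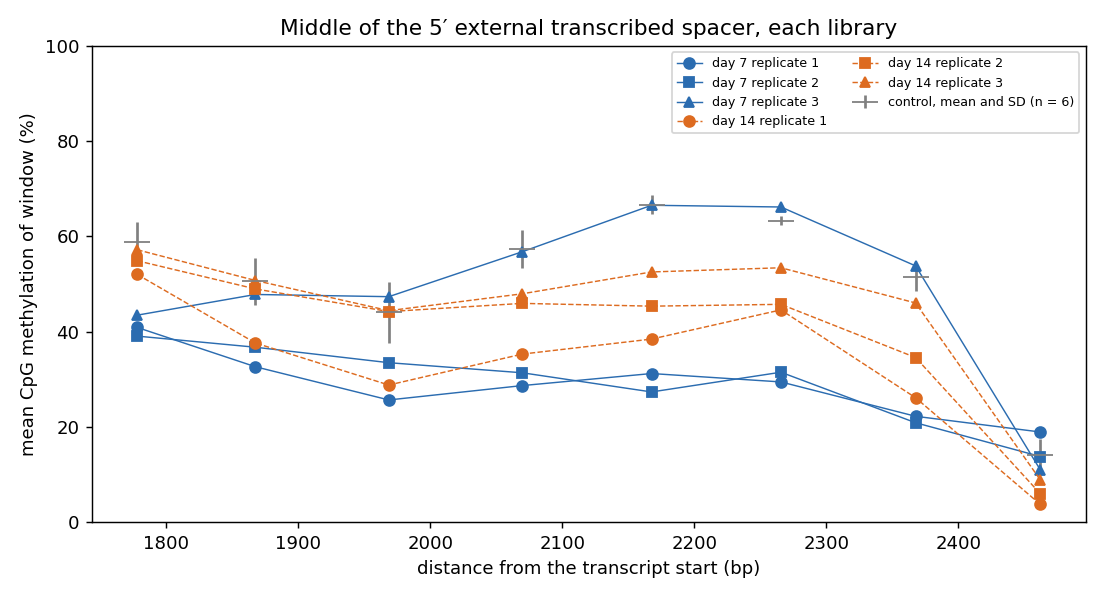
Mean CpG methylation (%) of 8 neighbouring windows in the middle of the 5′ ETS, a line for each library, with the control mean and SD (n = 6). From 2024 to 2417, replicate 3 of day 7 lies within 3 points of the control mean (66.5% against 66.6% at 2119 to 2216), and the other day 7 libraries are the lowest there.

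The 18S gene encodes the RNA of the small ribosomal subunit. Region 4, in its first part, read 83.2%, 78.9% and 71.0% at day 7 and 75.8%, 70.2% and 84.7% at day 14 (log2 difference -0.03, limma adjusted p = 0.947). None of its 31 sites separated the groups, and the unconverted share was low (1.86% and 1.75%). Controls stood at 46.5% ± 3.58. Over all 84 tested sites of 18S the means were 56.6% ± 5.15 and 57.3% ± 6.79 and the groups overlapped at every site.

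ITS1, the spacer between 18S and 5.8S, stood at 36.1% ± 2.00 and 38.0% ± 6.71, against 57.7% ± 3.58 in controls. Its unconverted share was 16.3% at day 7 and 13.6% at day 14, against 6.27% in controls. Removing that share gave 25.6% at day 7 and 29.8% at day 14. Of its 168 sites 10 lay above and 1 below without overlap, against 17.7% and 10.8% of all 997 sites. Replicate 3 of day 14 read over 10 points above both partners at all 26 sites from 5768 to 5882, with 18.05%, 24.2% and 39.97% at day 14 and 22.6%, 29.1% and 29.6% at day 7. The unconverted share differed too, at 9.02%, 12.1% and 24.5% in the day 14 libraries. With it removed they read 9.93%, 13.8% and 20.4%. Replicate 1 of day 7 was the low one over 20 sites from 6022 to 6141, at 16.8% against 34.6% and 37.4%. With the unconverted share removed these levels were 13.3%, 26.5% and 31.9%. The window at 6129 to 6208 read 9.40%, 11.4% and 13.3%, then 12.3%, 18.9% and 29.2%, with the lowest day 14 library inside the day 7 range, and controls at 52.0% ± 5.74.

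The 5.8S gene, whose RNA pairs with 28S in the large subunit, read 59.9%, 59.0% and 58.2% at day 7 and 57.1%, 55.8% and 72.9% at day 14, so that replicate 3 of day 14 alone stood above day 7. Controls stood at 43.7% ± 2.63. ITS2, the spacer between 5.8S and 28S, was sparsely methylated at 18.3% ± 5.37 and 18.4% ± 2.11, against 15.2% ± 3.15 in controls over its sites with control values. Neither part, nor 18S, ITS1, the whole 5′ ETS or the whole 28S, passed limma's test over the 7 parts (adjusted p = 0.965 for each). One of 7 parts was called (14.3%), the upstream part, which holds the same 23 sites as region 1 and is not a second result.

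The 28S gene encodes the large RNA of the large subunit, which holds the peptidyl transferase centre. As a whole it read 51.0%, 51.1% and 50.7% at day 7 and 52.5%, 54.3% and 55.4% at day 14. The groups did not overlap (50.9% ± 0.227 and 54.1% ± 1.45, exact permutation p = 0.1), and controls stood at 45.6% ± 2.56 over 234 sites, where day 7 stood at 45.3% and day 14 at 48.1%. Limma's mean log2 ratio gave a difference of 0.15 (adjusted p = 0.965), while summing the reads gave 0.98 (adjusted p = 0.0126). The unconverted share was 11.7% at day 7 and 7.93% at day 14. With that share removed, 28S read 45.4% and 51.2% on average (limma adjusted p = 0.296). Of its 357 sites, 112 lay above without overlap and 66 below, in blocks described next. Over all 997 sites the shares were 17.7% above and 10.8% below.

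The first block had day 14 below as an average, with most of its sites overlapping. Region 6, near the 5′ end of 28S, had 84.1%, 74.7% and 78.1% at day 7 and 70.7%, 74.1% and 69.2% at day 14, with a log2 difference of -0.69 ± 0.22 (limma adjusted p = 0.0570). Of its 24 sites, 5 lay below without overlap and 19 overlapped, while 10.8% of all 997 sites lay below. Its unconverted share was 25.9% at day 7 and 8.52% at day 14, and removing it gave means of 71.7% and 68.7%, a difference of -3.00 points. The libraries then overlapped, at 75.0%, 67.6% and 72.5% at day 7 and 66.5%, 72.1% and 67.4% at day 14. No site of the region had 10 reads in all controls. Region 7 was almost free of methylation in all 6 libraries, at 2.75%, 0.748% and 0.962% and then 0.442%, 0.819% and 0.711%, and in controls (1.33% ± 0.675). Replicates 1 and 3 of day 7 had median depths of 32 and 17 reads there, at which levels this low cannot be told apart.

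The middle of 28S, region 8, read 58.6%, 59.99% and 58.7% at day 7 and 60.2%, 60.8% and 61.9% at day 14, a log2 difference of 0.15 (limma adjusted p = 0.324). Controls stood at 43.8% ± 2.36 over the 154 sites with control values, where day 7 stood at 53.7% and day 14 at 55.3%. This small difference joined a block with day 14 above to a block with day 14 below, 70 and 60 of its 221 sites without overlap. Among all 997 sites, 17.7% lay above and 10.8% below. As counted, the region's groups did not overlap (exact permutation p = 0.1). The unconverted share was 14.7% at day 7 and 11.0% at day 14, against 2.70% in controls. With it removed the means were 51.7% and 57.1%, a difference of 5.44 points against 1.89 as counted (limma adjusted p = 0.116).

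In the first block all 7 windows from 8993 to 9617 had every day 14 library above every day 7 library. The window at 9118 to 9216 (21 sites) read 58.2%, 74.1% and 70.2% at day 7 and 84.2%, 79.2% and 85.8% at day 14, and at its 16 sites with control values controls stood at 28.4% ± 2.96, day 7 at 69.6% and day 14 at 83.9%. Its unconverted share was 25.0% at day 7 and 23.7% at day 14. With that share removed the difference was 23.5 points, against 15.5 as counted. The window lies in the longest run of sites with day 14 above, 25 sites from 9114 to 9236. At 9422 to 9515 (8 sites) the values were 42.9%, 45.8% and 42.1%, then 58.1%, 57.9% and 61.2%, with a log2 difference of 0.91 (limma adjusted p = 0.0541). The last window of the block, 9524 to 9617, read 56.7%, 58.9% and 55.4%, then 64.8%, 66.7% and 70.3%, and there conversion was nearly complete at both times (1.06% and 1.04% unconverted). At the 5 of its 8 sites with control values, controls stood at 43.8% ± 5.96, day 7 at 40.7% and day 14 at 55.6%. None of these 7 windows was called (adjusted p = 0.0541 to 0.4002).

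In the second block the 4 windows from 9944 to 10314, and the window at 10422 to 10516, had every day 14 library below every day 7 library. One of them fell by the test: 10153 to 10216 (13 sites) read 78.6%, 81.2% and 78.3% at day 7 and 71.2%, 61.0% and 62.0% at day 14, a log2 difference of -1.32 ± 0.28 (limma adjusted p = 0.0484). At the 9 sites with control values, controls stood at 64.8% ± 3.67, day 7 at 73.1% and day 14 at 62.1%. The unconverted share went from 18.8% to 3.58%, and with it removed the difference was -11.4 points and the call ended (adjusted p = 0.0602). The call also ended without any replicate of day 7 or without replicate 2 or 3 of day 14 (0.0935 to 0.198). The window at 10022 to 10093 read 52.0%, 53.4% and 49.2%, then 44.8%, 41.4% and 33.0% (adjusted p = 0.150), with an unconverted share of 18.6% and then 8.47%. Its difference was -11.8 points as counted and -5.36 with that share removed.

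The 3′ end of 28S, region 9, held 33.4%, 33.1% and 33.6% methylation at day 7 and 38.9%, 43.4% and 46.1% at day 14. The 3 day 7 libraries were within a point of each other, and all 3 day 14 libraries lay above them (33.4% ± 0.290 and 42.8% ± 3.65, exact permutation p = 0.1). The region rose by 0.77 ± 0.17 on the log2 scale (limma adjusted p = 0.0223), and 41 of its 96 sites lay above without overlap against 1 below. Among all 997 sites, 17.7% lay above and 10.8% below. Controls stood at 61.1% ± 5.12 (53.5% to 68.0%) over the 64 sites with control values, where day 7 stood at 36.3% and day 14 at 42.6%. Day 14 thus stood between the day 7 and the control level. The unconverted share was low at both times, 2.57% and 1.85%. The call ended at a minimum of 100 reads (log2 difference 0.63, adjusted p = 0.0517), without replicate 1 or 3 of day 7 (adjusted p = 0.053 and 0.0873) and without replicate 2 of day 14 (0.0685).

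The rise was steepest in short stretches. The window at 12423 to 12517 (5 sites) read 9.37%, 9.77% and 11.8% at day 7 and 17.5%, 29.7% and 28% at day 14, a rise of 1.90 ± 0.32 on the log2 scale (limma adjusted p = 0.0469). Controls stood at 34.1% ± 4.89, and the unconverted share was 0.209% and 0.253%. Of the 6 sites that edgeR called, 4 lie in this window. Site 12507 read 6.49%, 6.06% and 5.35% at day 7 and 14.3%, 23.1% and 21.1% at day 14 with at least 9478 reads (edgeR adjusted p = 0.0448), against 30.2% ± 6.23 in controls. Site 12441 read 5.93%, 5.39% and 5.21%, then 14.9%, 21.3% and 19.7% (adjusted p = 0.0341), against 27.7% ± 5.99. At all 4 called sites of this window the day 7 libraries lay close together and replicate 1 of day 14 was the lowest of its group. Site 12444 read 4.61%, 4.08% and 4.19%, then 11.3%, 17.2% and 15.8% (adjusted p = 0.0341), against 22.1% ± 4.96. Site 12423 read 3.38%, 3.23% and 3.24%, then 8.87%, 13.96% and 13.5% (adjusted p = 0.0341). The remaining called site, 12597, read 3.57%, 3.03% and 7.14%, then 19.8%, 24.1% and 22.2% (adjusted p = 0.0341), from as few as 28 reads. For both this window and sites 12441, 12444 and 12507, the call ended without replicate 1 or 2 of day 7 or replicate 2 or 3 of day 14, at adjusted p of 0.0607 to 0.184 for the window and 0.057 to 0.172 for the sites. The call of the window also ended without replicate 3 of day 7 (0.0604).

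The window at 12733 to 12817 (17 sites) read 22.9%, 16.2% and 22.0% at day 7 and 36.3%, 44.8% and 48.4% at day 14, and rose by 1.62 ± 0.29 (limma adjusted p = 0.0469). Of its sites 16 lay above without overlap, though some had as few as 10 reads. At its 7 sites with control values, which were deeply read, controls stood at 65.8% ± 5.81, day 7 at 11.0% and day 14 at 23.9%. The call ended with reads summed (log2 difference 1.36, adjusted p = 0.0714), without any replicate of day 7 and without replicate 2 or 3 of day 14 (0.0604 to 0.184). The window after it, 12825 to 12907 (12 sites, at least 30135 reads each), read 9.60%, 13.4% and 14.2%, then 19.6%, 28.1% and 31.1%, with all 12 sites above without overlap, and missed the threshold (adjusted p = 0.0632). Controls stood at 71.6% ± 6.30 there, far above both late times.

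**Figure D5:**
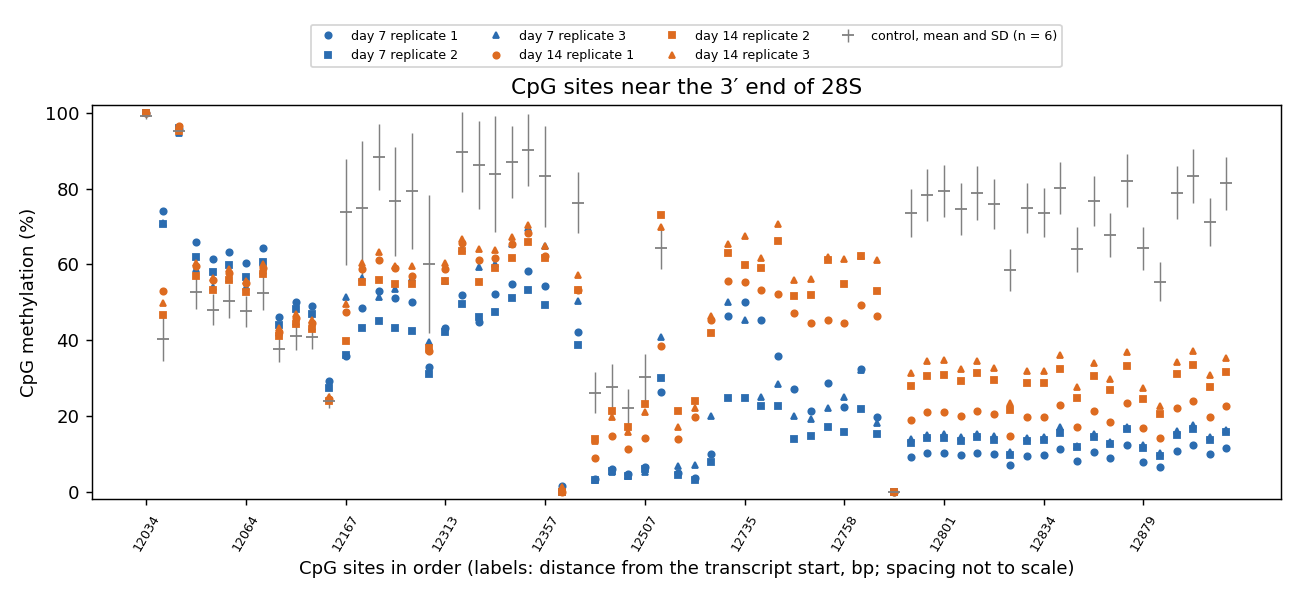
CpG methylation (%) of single sites near the 3′ end of 28S in each late library, with the control mean and SD (n = 6) where controls list the site; sites are in order and their spacing is not to scale. Day 14 (orange) lies between day 7 (blue) and the controls over most sites from 12423 on, as at 12825 to 12907, where controls average 71.6%.

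Sites with little unconverted cytosine nearby were also fitted alone. In a fit of the 299 sites with under 5% unconverted cytosines nearby in all 6 libraries, edgeR called 47 (15.7%), 45 of them higher (15.1%). Of these, 35 lie in region 9, which holds 79 such sites (44.3%), and 9 lie in region 8, which holds 90. Region 3, with 16 such sites, had 1 called higher and 2 called lower. At an unadjusted p below 0.05 this fit had 62 of 299 sites, against 219 of 997 in the fit of all sites. Leaving out 1 library at a time, an alternative chosen after seeing the data, gave 0 calls without replicate 2 of day 7 (51 sites at an unadjusted p below 0.05), 16 without replicate 1 of day 7, 9 without replicate 2 of day 14 and 8 without replicate 3 of day 14. Without replicate 3 of day 7 there were 40 calls and without replicate 1 of day 14 there were 47, of which 34 and 35 were higher sites of region 9.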

How the data were processed

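Bisulfite PCR products from a panel of primers were sequenced as paired ends, 1 library per sample, per the labels' protocols. Tools in the submitters' processing notes are BSMAP 2.90, SAMtools 1.3.1, Trim Galore and methylKit. Each deposited file lists cytosines with counts of reads, of C and of T, plus the fraction methylated, made by the authors as C over C plus T. It was recomputed from the deposited counts and printed as percent. Cytosines with under 10 reads are not listed.

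For the CpG sites read 10 times or more in every late library, methylated and unmethylated counts entered edgeR's quasi-likelihood test (edgeR 4.0.16, R 4.3.3). Regions, windows and parts were fitted with limma 3.58.1 on the mean of log2((methylated + 0.5)/(unmethylated + 0.5)). P-values were adjusted by Benjamini-Hochberg over all sites, regions, windows or parts tested and called below 0.05. Removing the unconverted share means subtracting, from each site's methylated reads, those expected from cytosines outside CpG within 100 bp. With PCR reads and no molecular identifiers, depth covers counting error only.

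Parts of the unit were assigned from the published layout of the GenBank record, which came from outside the files. Members, parts and tests were chosen with earlier results of these data known. Named sites are called sites with at least 100 reads and no overlap between groups, at most 3 per region and 10 per direction, filled with shallower ones where a direction has fewer than 5. Every region and part and each called window is named. No 2 libraries within day 7 or within day 14 were copies (lowest coverage chi-square per degree of freedom 479.6). Other pairs of libraries were not checked. Sequences of the repeat are not used here.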

Additional observations from a re-analysis of the deposited data

How the results depend on the processing

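Of the single regions, parts, windows and sites, 192 values kept their direction and their side of the threshold, 85 kept the direction but lost the call, 3 gained a call and 23 changed sign, all of these uncalled. The 6 called sites became 18 with a minimum of 20 reads (of 891), 13 with 100 reads (of 695), 0 with limma or a quasi-binomial fit, 158 when all 15 libraries shared the spread (5 of the 6 among them), 50 with the local unconverted share removed and 47 among sites with under 5% unconverted nearby. At an unadjusted p below 0.05 the main fit had 219 of 997 sites. That count was 205 of 851 with all 15 libraries and 218 of 997 with the share removed. Among sites with under 5% unconverted nearby it was 62 of 299. Leaving out 1 library gave 0 to 97 called sites. The 3 called regions became 1 at 100 reads (7 tested, region 1 not among them) and 0 to 5 without 1 library. The 5 called windows became 11 at 20 reads, 1 with reads summed, 3 with a pseudocount of 2, 8 with the share removed (only 2 of the original 5 among them) and 0 to 3 without 1 library. At 100 reads the upstream part had no sites left to test and 0 parts were called. Its call was lost with the share removed (0 called, upstream adjusted p = 0.058) and with reads summed (0.926), where 28S was called instead, and 0 or 1 was called without 1 library. Region 1, the same sites fitted among the regions, kept its call with the share removed (limma adjusted p = 0.0337). Without replicate 3 of day 7, region 1 lost its call (0.0873) and the upstream part kept its own (0.0239). The 99 called CHG and CHH sites became 0 to 210 without 1 library, and the difference in the unconverted share was -1.84 to -0.67 points. These causes were not tested.

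A replicate block, with the shared replicate number as a term, gave 48 called sites and 106 CHG and CHH sites with edgeR, and with limma 0 regions, 0 windows and 0 parts (3, 19 and 1 at an unadjusted p below 0.05). Deviations of same-numbered libraries correlated at 0.187, -0.0927 and 0.132 (replicates 1, 2 and 3), and replicate 2 did not correlate best with its own number, so the numbers were not taken to pair samples.

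Signs turned, none called, with reads summed in region 3 (0.18), region 5 (-0.0667), 18S (-0.0347), ITS1 (-0.0452) and 5.8S (-0.0822), with the share removed in region 3 (0.58), with a pseudocount of 2 in the 5′ ETS (-0.0046) and ITS2 (-0.10), and at 20 reads in ITS2 (-0.0115). Without 1 library the log2 differences ranged from -0.45 to 0.28 in region 4, -0.0476 to 0.40 in region 5, -0.13 to 0.13 in the 5′ ETS, -0.26 to 0.23 in 18S, -0.0148 to 0.54 in ITS1, -0.17 to 0.36 in 5.8S and -0.38 to 0.30 in ITS2. Region 6 and region 7 gained a call without replicate 2 of day 7 (-0.83, adjusted p = 0.0353, and -3.73, adjusted p = 0.000556, both limma). Of the 997 sites, 695 had at least 100 reads in all 6 libraries, so shallow sites such as those from 12733 to 12770 carry wider counting error.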

Other observations

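Single sites, chosen after their values were seen, sat at the ends of the scale in all 6 late libraries. Site 12782, in the 28S stretch where the sites around it rose, read 0.0128%, 0.00889% and 0.0138% at day 7 and 0.0251%, 0.00902% and 0.0126% at day 14 from at least 27907 reads, and controls stood at 0.0243%. Site 9248, in the block of 28S where day 14 lay above day 7, read 0.0846% to 0.0979% at day 7 and 0.0924% to 0.137% at day 14 from at least 52317 reads. The unconverted share of its window, 9219 to 9305, was 23.8% at day 7 and 20.1% at day 14. At 12733 to 12817, which holds 12782, that share was 1.97% and 2.98%. Both sites thus read far less C than the cytosines outside CpG around them. Their readings may therefore not be methylation levels, which was not tested. At the other end, site 1858 in the 5′ ETS read 99.8% to 99.9% in every late library from at least 121198 reads, and 99.8% in controls. Site 2063 read 99.8% to 99.9% from at least 102733 reads and 99.8% in controls, in the stretch where replicate 3 of day 7 stood apart. At each of these sites the 6 late libraries differed by less than 0.2 points. Whether the readings of 1858 and 2063 are methylation levels was not tested either.

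The widest downward differences between the times lay at 2962 in the 5′ ETS and at 10158 and 10165 in 28S. Site 2962 read 85.3%, 72.1% and 100% at day 7 and 54.1%, 40.0% and 49.2% at day 14, from as few as 15 reads (edgeR adjusted p = 0.0734), and controls stood at 32.0%. Site 10158 read 89.2%, 92.7% and 90.8%, then 82.0%, 48.7% and 52.9%, from as few as 34 reads (edgeR adjusted p = 0.0707). Site 10165 read 94.9%, 94.3% and 93.7%, then 85.2%, 63.0% and 57.4% (edgeR adjusted p = 0.0593). The unconverted share near 10165 was 23.2% at day 7 and 4.55% at day 14. The result with that share removed is given above for the window at 10153 to 10216, and not for this site.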
